A study of Mus musculus with 8 samples.

Results

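The genes described here encode the proteins of the mitochondrial ribosome (mitoribosome) and were followed in pancreatic islets of Wfs1KO and WT mice. All rows of the count table whose symbol reads Mrpl or Mrps plus a number and at most 1 letter were taken, without regard to their values. This gave 78 of the 24537 genes in the table, 49 named for the large subunit (Mrpl) and 29 named for the small subunit (Mrps). RNA-seq libraries came from islets of 12-week-old male mice in 2 groups, 4 Wfs1KO samples (Wfs1 knockout) and 4 WT samples, with no treatment. Wolframin, the product of Wfs1, sits in the membrane of the endoplasmic reticulum and is mutated in Wolfram syndrome. How the Wfs1 allele was disrupted, the strain, and whether a sample is 1 animal or a pool are not given in the sources used here, so the p-values measure the spread between these samples.

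Mitochondria carry their own ribosomes, which translate the few mRNAs made from mitochondrial DNA, all of which encode membrane subunits of the respiratory chain and ATP synthase. The ribosomal RNAs come from mitochondrial DNA, whereas every protein of this ribosome is encoded in the nucleus, translated in the cytosol and imported. Some of these proteins descend from proteins of bacterial ribosomes, and others were added during mitochondrial evolution. Beta cells depend on respiration to couple glucose to insulin secretion. The subunit letter in a symbol is historical, and in ribosome structures the products of Mrps30 (mL65) and Mrps18a (mL66) sit in the large subunit, while that of Mrps36 has been assigned to the oxoglutarate dehydrogenase complex.

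Exon counts per library ranged from 16395855 to 27057617 in Wfs1KO and from 15810830 to 21552731 in WT. Wfs1 itself kept reads in the knockout and averaged 107 CPM (counts scaled to library size with TMM factors) in Wfs1KO and 179 CPM in WT, with no overlap between the groups (log2 fold change -0.74, SE 0.08, edgeR quasi-likelihood F-test with an adjusted p of 5.06e-05). Of 10 beta cell markers, 8 fell and 1 rose in the Wfs1KO islets, with a summed level of 110443 to 135696 CPM in Wfs1KO against 163206 to 209021 CPM in WT. Of 14 endothelial markers 13 rose, with a summed level of 916 to 1084 CPM in Wfs1KO against 683 to 772 CPM in WT. Of 14 stellate and pericyte markers 3 rose. The summed level of the 14 was 445 to 555 CPM in Wfs1KO against 284 to 409 CPM in WT. Of 3 delta cell markers 2 rose (Sst and Hhex), and of 6 alpha cell markers 1 rose (Gc). Of 7 ductal markers 1 rose and 1 fell. None of 12 macrophage markers rose or fell, nor did the pancreatic polypeptide gene Ppy. In these bulk samples, fewer cells of a type and less RNA per cell cannot be told apart. The share of the counts taken by 14 acinar markers was 1.09% to 6.98% in Wfs1KO and 3.23% to 6.97% in WT. The part of these shifts in the values below was not tested.

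Promoters are shown for the members that rose in the Wfs1KO islets, because ETS factors, NRF1 and YY1 are known regulators of many nuclear genes for mitochondrial proteins. Of the 78 members 69 had an entry in the RefSeq promoter table (GRCm38.p6), which covers 250 bases before to 50 bases after a gene's start. Entries were found for 4 of the 5 members that rose, Mrps12, Mrpl17, Mrps14 and Mrpl58. Capitals mark matches on either strand to the motif letters CCGGAAG (ETS factors), GCATGCGC (NRF1), ATGGCGG (YY1) or TGATGNAAN (the element bound by ATF4 with CHOP).
Mrps12 (chr7:28741772-28742071, minus strand): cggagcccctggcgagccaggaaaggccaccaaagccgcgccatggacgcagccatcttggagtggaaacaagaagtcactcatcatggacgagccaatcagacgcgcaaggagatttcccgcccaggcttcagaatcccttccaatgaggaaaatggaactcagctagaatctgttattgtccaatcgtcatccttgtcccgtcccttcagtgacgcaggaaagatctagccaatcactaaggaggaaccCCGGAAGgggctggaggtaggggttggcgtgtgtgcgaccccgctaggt
Mrpl17 (chr7:105811038-105811337, minus strand): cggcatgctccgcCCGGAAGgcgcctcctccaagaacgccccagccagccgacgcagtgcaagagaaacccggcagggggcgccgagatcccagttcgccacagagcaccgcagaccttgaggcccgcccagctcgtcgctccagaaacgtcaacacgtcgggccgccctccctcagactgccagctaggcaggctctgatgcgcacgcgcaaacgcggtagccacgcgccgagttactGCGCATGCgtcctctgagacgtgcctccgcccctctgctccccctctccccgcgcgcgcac
Mrpl58 (chr11:115403502-115403801, plus strand): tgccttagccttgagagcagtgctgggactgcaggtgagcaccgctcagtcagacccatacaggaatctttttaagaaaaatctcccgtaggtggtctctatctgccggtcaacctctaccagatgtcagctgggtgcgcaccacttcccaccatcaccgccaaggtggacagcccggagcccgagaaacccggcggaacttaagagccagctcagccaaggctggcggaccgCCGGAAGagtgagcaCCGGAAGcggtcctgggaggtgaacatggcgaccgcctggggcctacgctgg
Mrps14 (chr1:160194965-160195264, plus strand): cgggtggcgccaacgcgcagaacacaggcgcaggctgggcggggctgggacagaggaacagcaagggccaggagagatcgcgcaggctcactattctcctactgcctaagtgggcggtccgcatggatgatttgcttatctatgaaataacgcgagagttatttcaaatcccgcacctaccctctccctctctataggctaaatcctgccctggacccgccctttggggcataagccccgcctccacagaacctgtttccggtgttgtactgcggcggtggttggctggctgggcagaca
The Mrps12 window held 1 ETS match, just after the start, and the Mrpl58 window held 2. The Mrpl17 window held 1 ETS match and 1 NRF1 match on the reverse strand, and the Mrps14 window held none of the motifs.

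Across the family the ETS letters stood in 25 of 69 promoters (36.2%), against 16.1% of the 11929 promoters of tested genes in the table and 9.12% of all 27025. YY1 letters were found in 13 member promoters (18.8%, against 7.4% of those of tested genes). NRF1 letters were found in 8 (11.6%, against 5.0%), of which 7 belonged to large subunit genes. None of the 69 held the ATF4-CHOP letters, which 2.34% of the promoters of tested genes held. A match is a run of letters and not a shown binding site, and the absence of a match says only that these letters are not in this window.

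The level of each gene per length of its deposited exon model sets the family in order within islets. Mean CPM per kb over the 8 libraries had a median of 15.7 and an interquartile range of 10.2 to 22.9. Large subunit genes had a median of 16.1 CPM per kb and small subunit genes of 14.8 CPM per kb. The highest was Mrpl24, a protein at the peptide exit of the large subunit, with a mean of 62.8 CPM per kb and 55.9 to 69.1 CPM per kb across libraries. Next came Mrps12, the universal decoding-centre protein of the small subunit, at 55.0 CPM per kb over both genotypes (39.6 to 70.2 CPM per kb). This range spans a difference between the genotypes, with a mean of 45.2 CPM in Wfs1KO and 29.5 CPM in WT. Only Wfs1KO libraries reached the range of Mrpl24. Mrps21 (40.5 CPM per kb), Mrpl33 (39.1 CPM per kb) and Mrpl52 (38.8 CPM per kb) followed, and their ranges overlapped each other. Mrps34, needed for stability of the small subunit's RNA, stood at 33.2 CPM per kb. Counting ignored strand, and in GENCODE M21 Mrps34 shares 1309 of its 2064 exon bases with Mapk8ip3 and 763 with Nme3, and Mrpl24 shares 594 of 2255 with Rrnad1, so both levels are uncertain, as is that of Mrpl19 below (1962 of 5450 shared with Gcfc2).

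At the low end, Mrpl23 stood at 0.869 CPM per kb and Mrps36 at 1.149 CPM per kb, from 5 to 18 and from 8 to 27 counts per library. Both have near-identical copies elsewhere in the genome, with 1 pseudogene matching Mrpl23 at up to 100% identity and 5 pseudogenes matching Mrps36 at up to 99.3%. How reads shared by such copies were counted is not stated, so these 2 levels are uncertain. The next lowest were Mrpl35 (3.52 CPM per kb) and Mrpl19 (4.41 CPM per kb), both with exon models several kb long, and in the small subunit Mrps33 (6.22 CPM per kb) and Mrps22 (6.91 CPM per kb). Genes with a counterpart in bacterial ribosomes (48 members) had a median of 17.4 CPM per kb, and the 30 without such a counterpart 14.2 CPM per kb. The interquartile ranges of these groups, 11.1 to 23.4 and 9.88 to 20.9 CPM per kb, largely coincided.

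**Figure D1:**
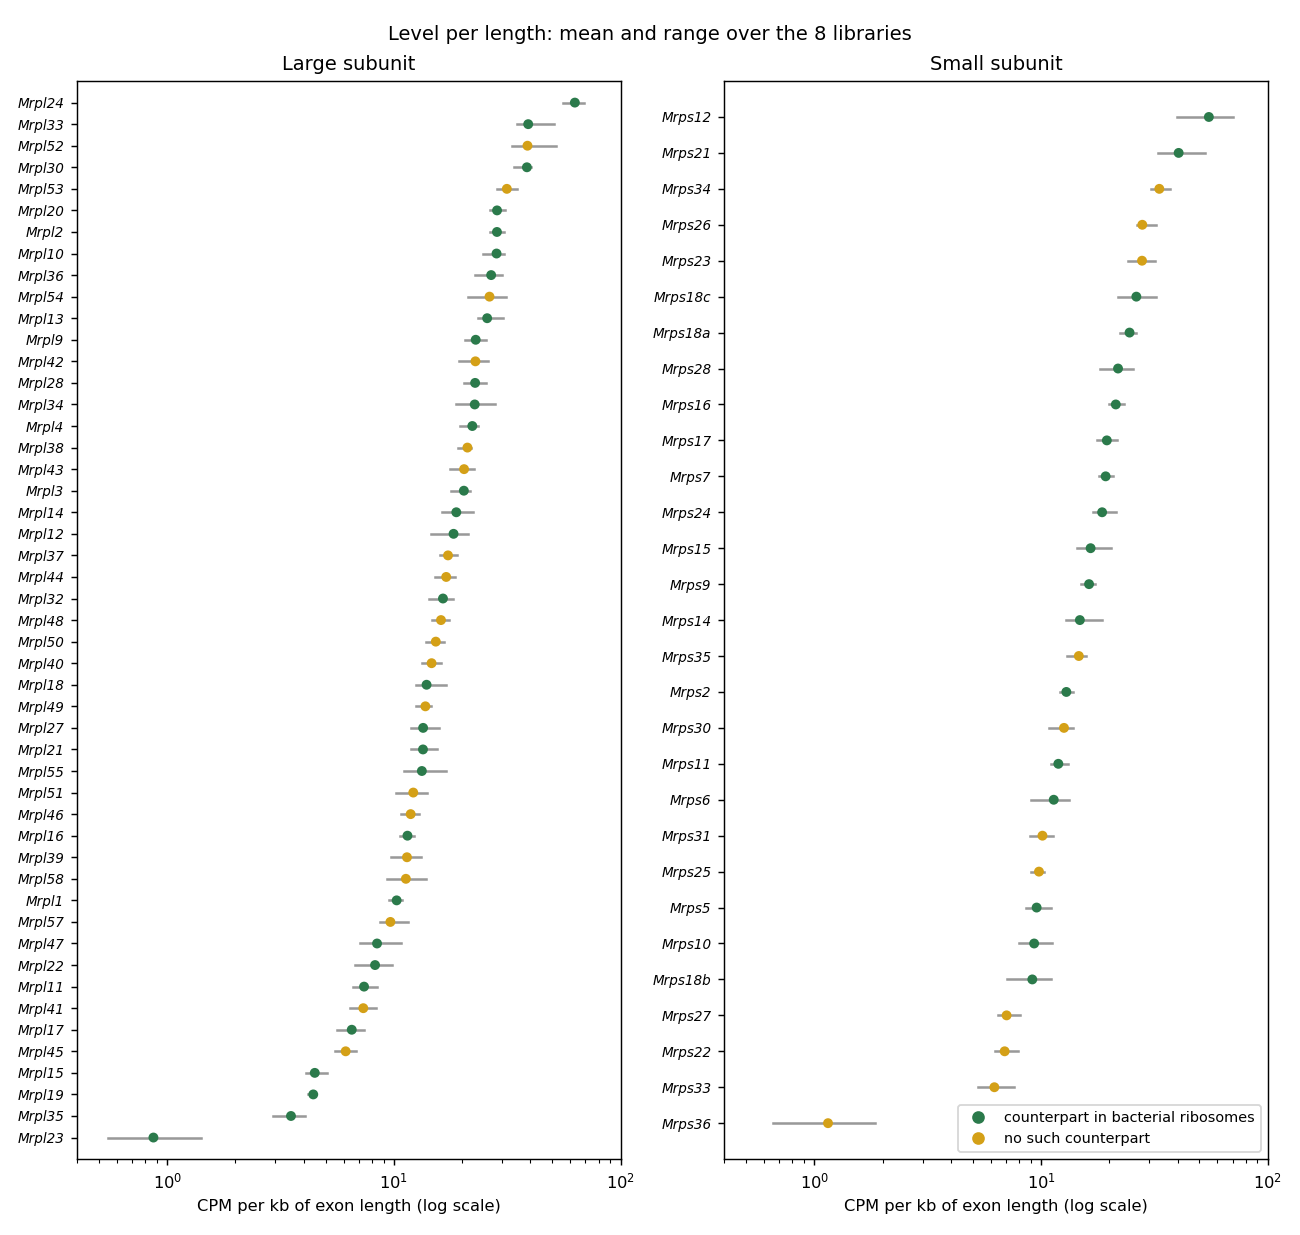
Level of each mitoribosomal protein gene as CPM per kb of exon length on a log axis, with the mean (point, green with and yellow without a bacterial counterpart) and range (line) over the 8 libraries, for the large subunit (left) and small subunit (right). Mrpl24 and Mrps12 lead their subunits at 62.8 and 55.0 CPM per kb, and Mrpl23 and Mrps36 lie far below all others at 0.869 and 1.149 CPM per kb. The range of Mrps12 spans its difference between Wfs1KO and WT.

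The comparison of Wfs1KO with WT asks whether loss of Wfs1 changes the RNA of these genes. Few passed the threshold. Of 78 members, all tested, 5 rose (6.41%), none fell and 73 did not pass, whereas 18.9% of all 15733 tested genes were called, 10.4% higher and 8.49% lower. The called share was smaller among short genes, at 14.4% for exon lengths up to 1790 bases, where 62 of the members lie. At an unadjusted p under 0.05 in edgeR, 15 of 78 members were higher and 0 were lower, beside 2677 higher and 2216 lower of all 15733 tested genes. In DESeq2 and limma-voom no member was called lower either. The 5 were Mrps12, Mrps14 and Mrps28 of the small subunit (3 of 29) and Mrpl17 and Mrpl58 of the large subunit (2 of 49). Mrps12 rose 1.53-fold and the 4 others 1.18-fold to 1.21-fold, and for 75 of 78 members (96.2%, against 66.6% of all tested genes) the 95% interval of the fold change lay within 1.5-fold in both directions. The 3 others were Mrps12 and the thinly covered Mrpl23 and Mrps36. The count of members that rose was 3 without Wfs1KO replicate 1, 2 or 3 or WT replicate 1, and 7 without Wfs1KO replicate 4.

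**Figure D2:**
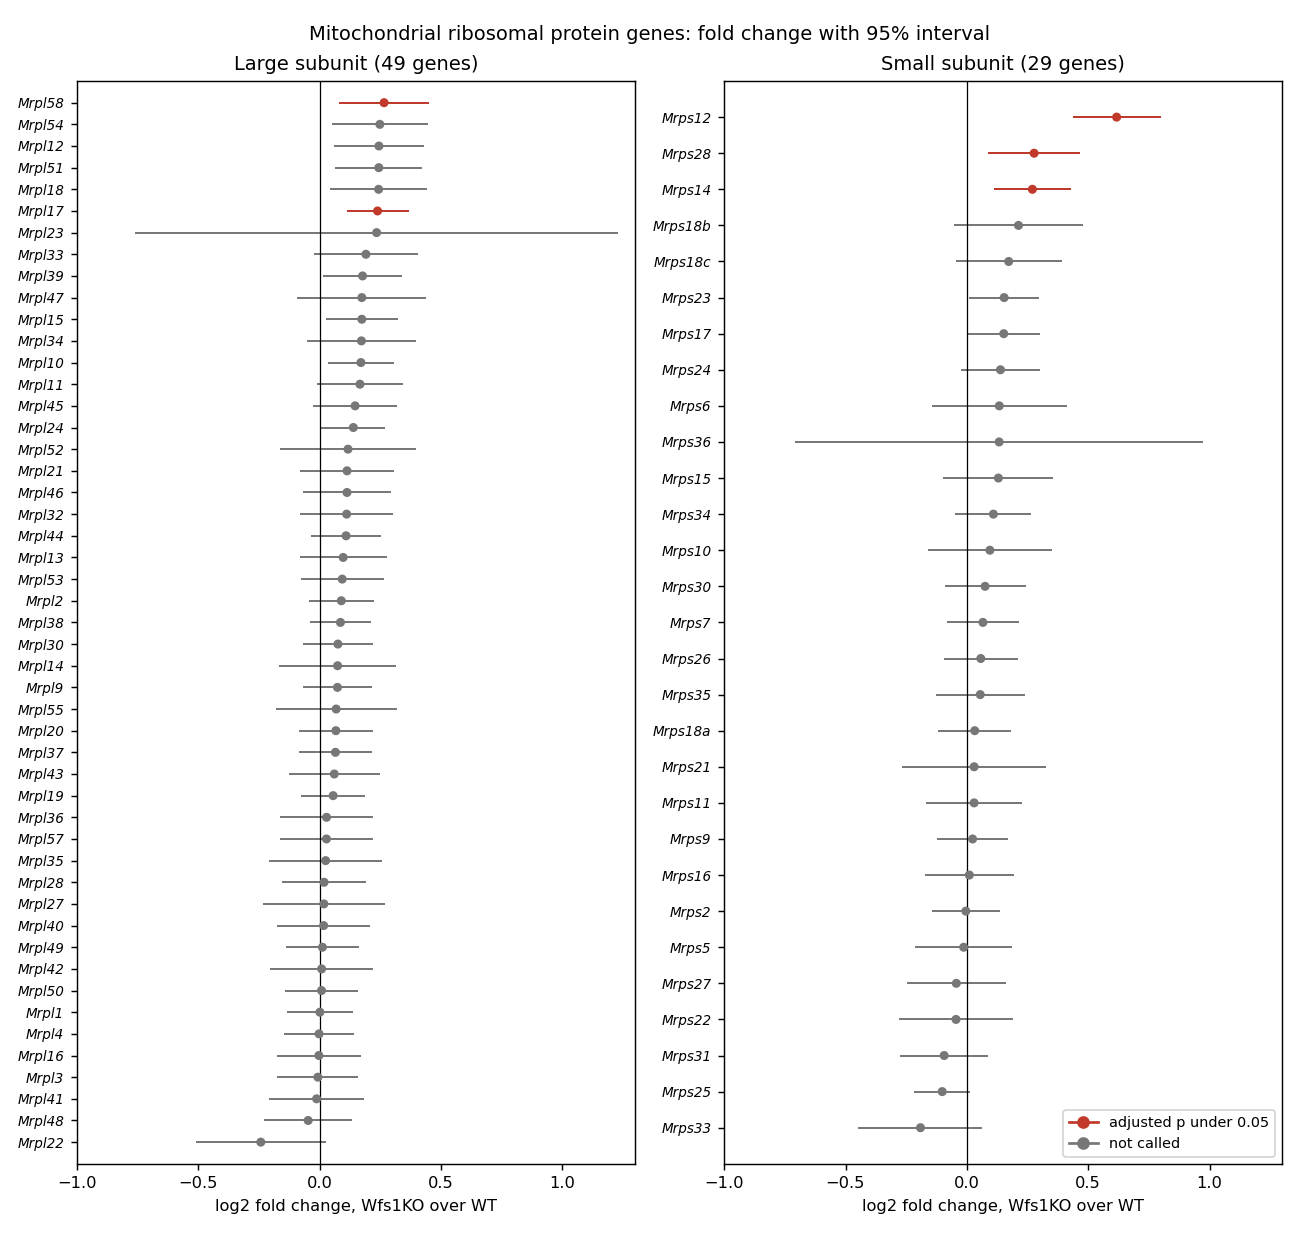
Log2 fold change of Wfs1KO over WT (point) with its 95% interval (line) for the 49 large subunit genes (left) and the 29 small subunit genes (right), sorted by size. Red marks the 5 genes with an adjusted p under 0.05, of which Mrps12 stands apart at 0.62, and most of the grey points lie slightly right of 0.

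Mrps12 (NM_011885) lies on chromosome 7 from 28739641 to 28741781 (mm10, minus strand). It stood at 47.3, 47.7, 47.4 and 38.3 CPM in Wfs1KO replicates 1 to 4, against 27.7, 26.9, 31.9 and 31.4 CPM in WT replicates 1 to 4. Every Wfs1KO library was above every WT library, and replicate 4 was the lowest of the Wfs1KO libraries. The difference was 1.53-fold (log2 fold change 0.62, SE 0.08, adjusted p = 1.68e-04 in edgeR). It was called in each of the 18 alternative fits, with log2 fold changes from 0.43 in replicates 3 and 4 alone to 0.78 in replicates 1 and 2 alone. In the authors' deposited table its log2 fold change was 0.57 with an adjusted p of 6.40e-09. The gene starts 172 bases from Sars2, the mitochondrial seryl-tRNA synthetase gene transcribed in the other direction, with no shared exon. Sars2 averaged 8.22 ± 1.197 CPM in Wfs1KO and 8.003 ± 1.22 CPM in WT (SD, n = 4 each) and did not pass (log2 fold change 0.04, edgeR adjusted p = 0.868). The difference between the fold changes of these neighbours was not tested.

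Mrpl17, a large subunit protein with a bacterial counterpart near the exit tunnel, had 45.6, 49.6, 49.04 and 45.2 CPM in Wfs1KO replicates 1 to 4, against 41.1, 37.8, 39.5 and 41.9 CPM in WT replicates 1 to 4. The groups did not overlap, and the fold change was 1.18 (log2 0.24, SE 0.06, adjusted p = 0.00989 in edgeR). Mrps14, a small subunit protein of the universally conserved set, had 31.9, 37.3, 30.2 and 30.9 CPM in Wfs1KO, against 26.9, 27.6, 27.9 and 25.8 CPM in WT. Here too the groups did not overlap, with Wfs1KO replicate 2 highest (log2 fold change 0.27, SE 0.07, edgeR adjusted p = 0.0175). Both calls held with each library left out in turn, but with replicates 3 and 4 alone neither passed (edgeR adjusted p = 0.138 for Mrpl17 and 0.232 for Mrps14), and with replicates 1 and 2 alone Mrpl17 did not (0.0521).

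Mrps28 and Mrpl58 were near the threshold. Mrps28, a small subunit protein related to bacterial S1, had 17.9, 18.3, 17.3 and 15.1 CPM in Wfs1KO, against 13.6, 14.4, 15.8 and 13.1 CPM in WT. Wfs1KO replicate 4 lay below WT replicate 3, so the groups overlapped (log2 fold change 0.28, SE 0.09, edgeR adjusted p = 0.0390). Mrpl58, a peptidyl-tRNA hydrolase built into the large subunit that can release stalled chains, had 31.4, 35.9, 31.6 and 28.7 CPM in Wfs1KO, against 25.6, 30.8, 24.1 and 25.7 CPM in WT. WT replicate 2 lay above Wfs1KO replicate 4 (log2 fold change 0.26, SE 0.08, edgeR adjusted p = 0.0437). Mrps28 lost its call without Wfs1KO replicate 1, 2 or 3 or WT replicate 1, 2 or 4 (edgeR adjusted p 0.0630 to 0.106) and in DESeq2 (0.0641). Mrpl58 lost it without Wfs1KO replicate 1, 2 or 3 or WT replicate 1, 3 or 4 (0.0696 to 0.132). In these fits without 1 library the log2 fold changes were 0.24 to 0.28 for Mrps28 and 0.21 to 0.27 for Mrpl58, close to those with all libraries. In the authors' deposited table, 4 members had an adjusted p under 0.05, all higher in Wfs1KO, against 19.3% of all tested genes there, and Mrps28 stood at 0.0582.

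**Figure D3:**
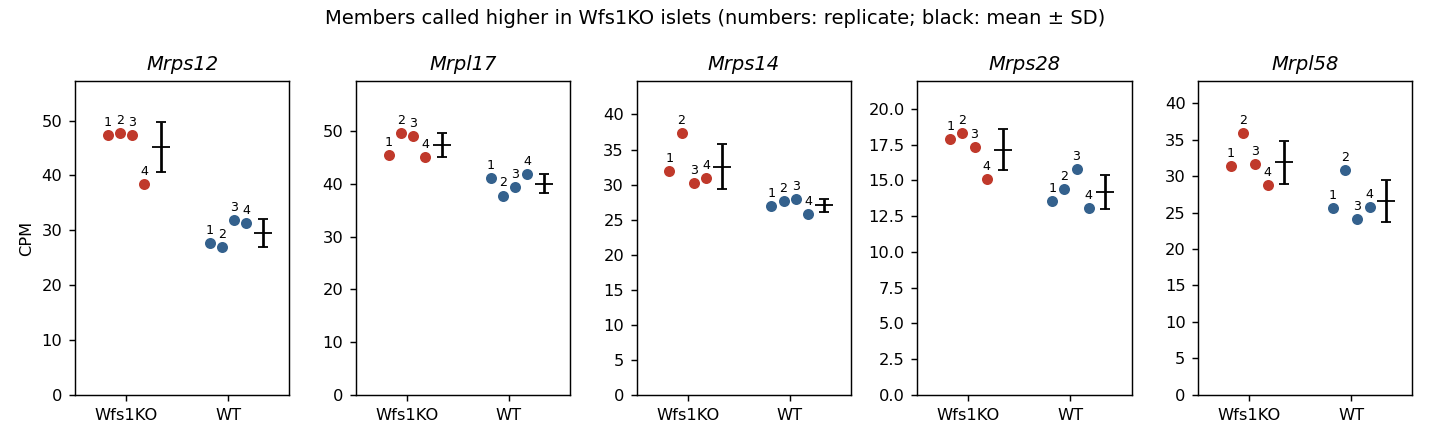
CPM in each library for the 5 members called higher, Wfs1KO (red) left of WT (blue), with the replicate number above each point and the mean ± SD in black (n = 4 each). Groups part without overlap for Mrps12, Mrpl17 and Mrps14, and overlap for Mrps28 and Mrpl58.

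The median log2 fold change was 0.09 over the 49 large subunit genes and 0.07 over the 29 small subunit genes, beside 0.01 over all tested genes. It was above 0 for 43 large and 22 small subunit genes, together 83.3% of members, against 52.6% of all tested genes. With the subunits as placed in ribosome structures the medians were 0.08 for 51 large and 0.06 for 26 small subunit genes. Genes with a bacterial counterpart had a median of 0.09 (4 of 48 rose) and those without one of 0.06 (1 of 30 rose). For 9 members, all higher in Wfs1KO (7 large, 2 small), the groups did not overlap, as was the case for 22.6% of all tested genes (12.3% higher and 10.3% lower). The 73 members that did not pass ranged from -0.24 (Mrpl22) to 0.25 (Mrpl54).

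The summed level of the large subunit genes was 1064, 1150, 1056 and 1026 CPM in Wfs1KO replicates 1 to 4, against 1011, 1001, 1001 and 1007 CPM in WT replicates 1 to 4. The small subunit genes summed to 580, 620, 577 and 555 CPM in Wfs1KO, against 539, 531, 554 and 552 CPM in WT. Neither sum overlapped between the groups, though in the small subunit Wfs1KO replicate 4 was above WT replicate 3 by less than 1 CPM. The small subunit groups part only with Mrps12 included, which stood at 38.3 CPM in Wfs1KO replicate 4 and 31.9 CPM in WT replicate 3. The means were 1074 ± 53.0 CPM in Wfs1KO and 1005 ± 4.98 CPM in WT for the large subunit, 6.88% higher, and 583 ± 27.3 CPM in Wfs1KO and 544 ± 10.99 CPM in WT for the small subunit, 7.15% higher (SD, n = 4 each). With DESeq2 size factors in place of TMM the differences were 6.09% for the large and 6.35% for the small subunit. As a raw share of counts, with neither scaling, they were 14.6% and 14.99%, so their size depends on the scaling. The ratio of large to small subunit sums was 1.84 ± 0.0112 in Wfs1KO and 1.85 ± 0.0385 in WT, with overlapping groups and a difference smaller than either SD. Summed per kb of exon length, the ratio was 1.70 ± 0.0234 in Wfs1KO and 1.75 ± 0.0431 in WT (SD, n = 4 each), also with overlapping groups but with a difference larger than either SD. On that scale the large subunit sum was 6.80% higher and the small subunit sum 10.1% higher in Wfs1KO. Mrps12, the highest of its subunit per kb, averaged 45.2 CPM in Wfs1KO and 29.5 CPM in WT and is part of both small subunit sums. How much of the small subunit's difference, and of that in the ratio, comes from Mrps12 was not tested.

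**Figure D4:**
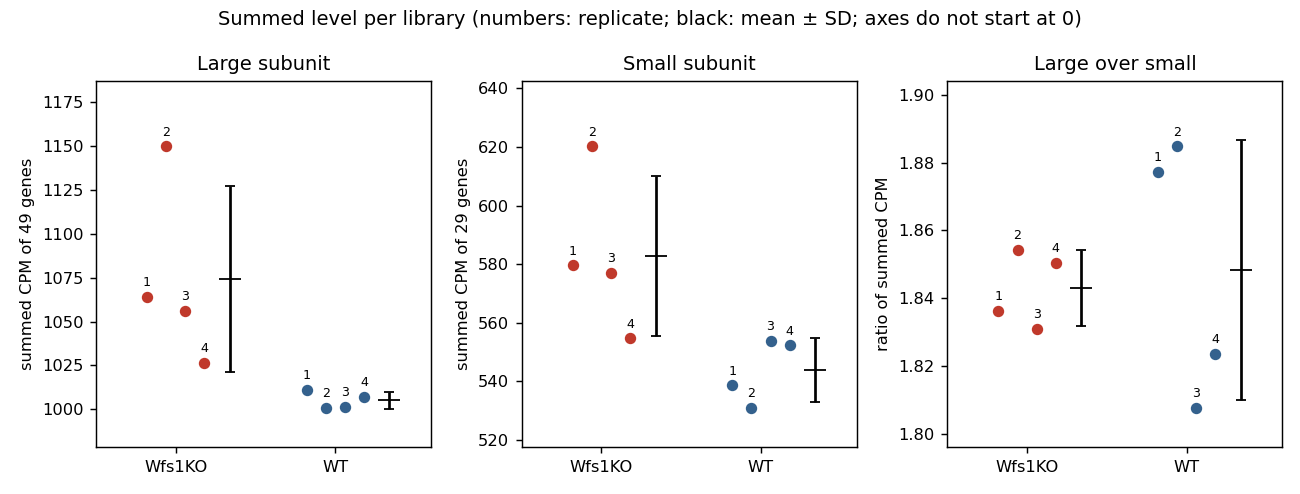
Summed CPM of the large subunit genes (left), of the small subunit genes (middle) and their ratio (right) in each library, Wfs1KO (red) left of WT (blue), with replicate numbers and the mean ± SD in black (n = 4 each). Wfs1KO replicate 2 is highest in both sums at 1150 and 620 CPM, and the ratio, near 1.84 in Wfs1KO and 1.85 in WT, has overlapping groups.

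Wfs1KO replicate 2 stood apart in this family. It was the highest of the 8 libraries for 46 of 78 members (59%), a position it held for 13% of all tested genes. Without it the members' median log2 fold change was 0.05, with 50 of 78 above 0 (against 51.2% of all tested genes). In that fit 3 members were called, and 2409 genes in all. The summed levels without Wfs1KO replicate 2 were 1049 ± 19.9 CPM in Wfs1KO (n = 3) against 1005 ± 4.98 CPM in WT (n = 4) for the large subunit, and 570 ± 13.7 CPM in Wfs1KO against 544 ± 10.99 CPM in WT for the small. The members are also short, with a median exon length of 1045.5 bases against 2844 bases over all tested genes, and 62 of the 78 fall in the shortest of 4 equal-sized length classes of tested genes (up to 1790 bases). In that class Wfs1KO replicate 2 was the highest library for 30.1% of genes, against 3.31% in the longest, the median log2 fold change was 0.05 against -0.02, and 60.3% of genes were above 0 against 45.2%. How far transcript length and this library account for the members' shift was not tested. In replicates 3 and 4 alone, 46 of 77 members were above 0, against 49.5% of all tested genes. In that fit 1 member was called, and 1846 genes in all.

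By position in the ribosome, the stalk of the large subunit, which recruits translation factors, gave 5 positive values of which none passed. Mrpl12, the multi-copy stalk protein, had 18.6, 19.98, 19.1 and 17.2 CPM in Wfs1KO, against 15.4, 13.8, 17.02 and 17.03 CPM in WT, with no overlap (log2 fold change 0.24, SE 0.08, edgeR adjusted p = 0.0581). Its anchor Mrpl10 averaged 50.3 ± 1.23 CPM in Wfs1KO and 44.7 ± 3.54 CPM in WT (log2 fold change 0.17, edgeR adjusted p = 0.0706). Mrpl11 at the stalk base, Mrpl53 and Mrpl54 stood at 0.17, 0.09 and 0.25 on the log2 scale. Mrpl53 shares 695 of its 790 annotated exon bases with Gm42688 on the same strand, so its counts are uncertain. Mrpl12 passed without WT replicate 4 (0.0490) and Mrpl10 without WT replicate 3 (0.0291), in the same test.

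Around the exit tunnel Mrpl17 rose and 5 genes did not pass. Mrpl22, a tunnel-wall protein, had the lowest log2 fold change of the family, -0.24 (SE 0.12, edgeR adjusted p = 0.197), with 5.55 ± 0.612 CPM in Wfs1KO and 6.60 ± 0.459 CPM in WT. It has 1 pseudogene copy matching at up to 97.1% identity, so its counts are uncertain. Mrpl24 averaged 62.0 ± 2.19 CPM in Wfs1KO and 56.3 ± 4.05 CPM in WT (log2 0.14, edgeR adjusted p = 0.127), and passed without WT replicate 2 (0.0326). Mrpl45, which ties the ribosome to the inner membrane, stood at 0.15 and Mrpl47 at 0.17, neither past the threshold. In the central protuberance Mrpl58 rose, while Mrpl38 (0.09), Mrpl46 (0.11), Mrpl40 (0.02) and Mrpl48 (-0.05) did not pass. Mrpl44, a large subunit protein with an RNase III fold, stood at 0.11 and Mrpl41 at -0.01. Mrpl51 was the uncalled member closest to the threshold, at 19.9 ± 1.35 CPM in Wfs1KO and 16.8 ± 1.52 CPM in WT (log2 0.24, edgeR adjusted p = 0.0517).

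Bacterial S18 has 3 relatives in this ribosome, which take different places in it. Mrps18b, Mrps18c and Mrps18a stood at 0.21, 0.17 and 0.03 on the log2 scale, and none passed (edgeR adjusted p 0.260, 0.266 and 0.797). Mrps34 averaged 30.8 ± 2.72 CPM in Wfs1KO and 28.6 ± 1.27 CPM in WT (log2 0.11, edgeR adjusted p = 0.326). Mrps5, a core protein of the small subunit, averaged 13.5 ± 1.57 CPM in Wfs1KO and 13.6 ± 0.526 CPM in WT, with a log2 fold change of -0.01 and a 95% interval from -0.21 to 0.18. Mrps30 stood at 0.08. Mrps36 stood at 0.13, with a 95% interval from -0.70 to 0.97. The lowest values were those of Mrps33 (-0.19, edgeR adjusted p = 0.295) and Mrps25 (-0.10, edgeR adjusted p = 0.200), whose levels were 6.08 ± 0.433 and 57.3 ± 2.55 CPM in Wfs1KO against 6.95 ± 0.697 and 61.4 ± 1.24 CPM in WT. Mrps25 shares 4590 of its 6576 annotated exon bases with Nr2c2 on the other strand, so its counts are uncertain.

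Of the 5 subunits that carry other symbols none passed in edgeR (2 higher and 1 lower at an unadjusted p under 0.05) or DESeq2, with a median log2 fold change of -0.09. Gadd45gip1 (mL64) averaged 38.9 ± 1.85 CPM in Wfs1KO and 43.7 ± 1.92 CPM in WT (log2 -0.17, edgeR adjusted p = 0.0593), and Aurkaip1 (mS38) 39.6 ± 3.53 CPM in Wfs1KO and 34.7 ± 1.64 CPM in WT (0.19, edgeR adjusted p = 0.0686). In both, the groups did not overlap. Gadd45gip1 was called lower in 4 alternative edgeR fits, among them that without Wfs1KO replicate 2 (adjusted p = 0.0482). Aurkaip1 was called higher by limma-voom (adjusted p = 0.0416), and in edgeR with replicates 1 and 2 alone (0.0171) and without Wfs1KO replicate 4 (0.0491). Chchd1 was called higher with replicates 1 and 2 alone (edgeR adjusted p = 0.0275). Chchd1, Dap3 and Ptcd3 stood at 0.25, -0.09 and -0.10.

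Among other nuclear genes of mitochondrial translation, 4 lists are set here against the 18.9% of all tested genes that were called (10.4% higher and 8.49% lower). Of 30 assembly factors 1 rose and 1 fell (median 0.03). Tfb1m, which methylates the small subunit's ribosomal RNA, averaged 9.42 ± 0.477 CPM in Wfs1KO and 7.62 ± 0.581 CPM in WT (log2 0.31, SE 0.10, edgeR adjusted p = 0.0434), but passed in only 4 of 18 alternative fits. With the replicate number as a block, its log2 fold change was 0.31 and the edgeR adjusted p 0.0852, so no assembly factor rose in that fit. Afg3l2, a subunit of the inner-membrane protease that processes Mrpl32, averaged 67.7 ± 3.56 CPM in Wfs1KO and 81.98 ± 3.17 CPM in WT (log2 -0.28, SE 0.05, edgeR adjusted p = 0.00288), and passed in all 18. Of 16 genes of initiation, elongation, release and nascent-chain processing none passed in edgeR (median -0.05, with 0 higher and 1 lower at an unadjusted p under 0.05), nor did any in DESeq2 or limma-voom. With the replicate block 1 of them was lower, the mitochondrial methionine aminopeptidase gene Metap1d (log2 -0.30, edgeR adjusted p = 0.0237). Metap1d averaged 26.4 ± 3.04 CPM in Wfs1KO and 32.7 ± 5.65 CPM in WT, and without WT replicate 4 it also passed (log2 -0.41, edgeR adjusted p = 0.00903). Of 20 genes for mitochondrial tRNA charging 1 fell and 0 rose (median -0.04). This was the alanyl-tRNA synthetase gene Aars2, at 9.60 ± 1.404 CPM in Wfs1KO and 13.8 ± 1.01 CPM in WT (log2 -0.52, SE 0.11, edgeR adjusted p = 0.00341). Of 21 genes of mitochondrial DNA expression 1 rose (median 0.02), the topoisomerase gene Top1mt, at 3.90 ± 0.249 CPM in Wfs1KO and 2.09 ± 0.698 CPM in WT (log2 0.92, SE 0.22, edgeR adjusted p = 0.00870).

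**Figure D5:**
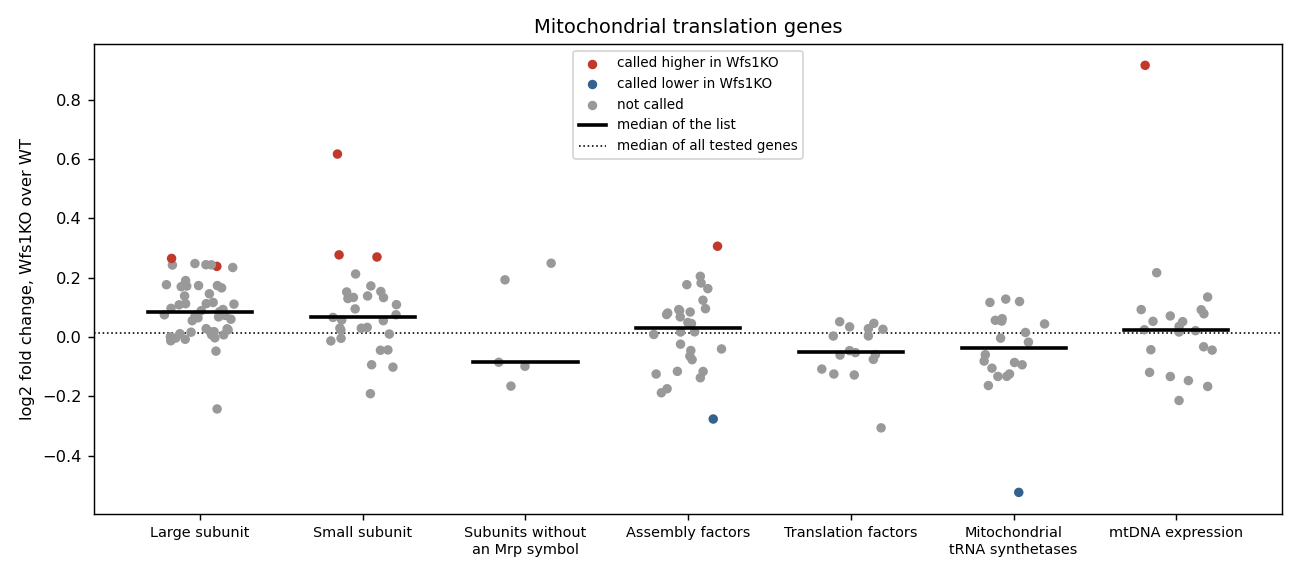
Log2 fold change of Wfs1KO over WT for single genes (points) in the large and small subunits and in 5 lists of other mitochondrial translation genes, with each list's median (bar) and the median of all tested genes (dotted line). The subunit medians, 0.09 and 0.07, lie above the dotted line at 0.01, and called genes (red higher, blue lower) are few in every list.

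Counting took no account of strand, which bears on a family that often lies head to head with other genes. In GENCODE M21 (GRCm38, the build of mm10), 28 of 78 members shared exon bases with a gene on the other strand and 8 with a gene on the same strand, and 33 had a protein-coding neighbour that starts within 1000 bases in the other direction. Among the members that rose only Mrpl58 had such an overlap, of 2 bases with Ict1os. Mrpl46 and Mrps11 overlap each other on opposite strands, so their counts are not independent. Near-identical copies (at least 200 bases at 95% identity or more) were found for 21 members, none of them among the 5 that rose. Besides Mrpl23 and Mrps36 they include Mrpl22, Mrpl41, Mrpl48, Mrpl51, Mrps5, Mrps18b (up to 99.8% identity), Mrps18c, Mrps21, Mrps25 and Mrps33 (up to 99.7% identity). The counts of these genes are uncertain for the same reason.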

How the data were processed

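Polyadenylated RNA was selected from 200 ng of total islet RNA and made into NEBNext Ultra II libraries, per the labels' protocols. The submitters' processing notes name STAR 2.6.0a, HOMER 4.11.1 and mm10. The deposited values are raw read counts per gene over RefSeq exons, 1 entry per gene, with no strand option, per the file headers. The authors' deposited table gives log2 fold changes of Wfs1KO against WT with unadjusted and adjusted p-values, per the file headers. Its sign was checked against the counts (Pearson correlation of 0.930 with edgeR's log2 fold changes of Wfs1KO over WT, across 15733 tested genes). The deposited exon length in bases was used for CPM per kb. The authors' transformed values per library were not used here.

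From the counts, edgeR 4.0.16 in R 4.3.3 was used (filterByExpr with a minimum count of 10, TMM, quasi-likelihood F-test with robust=TRUE), and tested on simulated data. Calls, and the words "rose" and "fell", rest on a Benjamini-Hochberg adjusted p under 0.05 across the 15733 genes. SE is the size of the log2 fold change over the root of F. Counts per member and library ran from 89 to 1720, apart from Mrpl23 and Mrps36, and the common biological coefficient of variation was 10.7%, so counting error adds to the spread most in members with few counts, such as Mrpl22 (89 to 178). Named members were those called, the 3 closest uncalled in each direction, the 3 highest and lowest per kb in each subunit, those with a known role and the other genes called in each list, while genes printed beside these (Mrpl38, Mrpl40, Mrpl45, Mrpl46, Mrpl47, Mrpl48, Mrpl53, Mrpl54, Sars2, Metap1d and the subunits with other symbols) were chosen after values were seen, as were the groups by position in the ribosome. The members, lists and tests were chosen with earlier results of these data known. DESeq2 1.42.0 and limma 3.58.1 were alternatives. Replicate numbers were read from the labels. Deviations of same-numbered Wfs1KO and WT libraries correlated at 0.153, 0.443, 0.269 and 0.188 across genes. Libraries with different numbers were not compared in this way, so these values cannot decide whether the numbers pair the samples. The fit reported held no replicate term, and the replicate block was used only as an alternative fit.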

Additional observations from a re-analysis of the deposited data

Results flagged for a closer look

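Mrps12 in Wfs1KO replicate 4, at 38.3 CPM, lay far from the other 3 Wfs1KO libraries, which stood between 47.3 and 47.7 CPM. It was still above the highest WT library, and without it the log2 fold change was 0.68. This was the only such case among the 64 groups of 4 libraries checked, over the named members, both subunit sums and their ratio, and about 1 in 20 groups would be picked by chance.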

How the results depend on the processing

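The count of members called higher, 5 in the fit reported, was 3 with the 20 most abundant genes left out, 8 with a block of replicates 1 and 2 against 3 and 4, 1 in replicates 3 and 4 alone, 2 at an adjusted p under 0.01 and 11 under 0.1, and 3 to 7 with each library left out. No setting called a member lower. With the replicate block the same 5 members were called, Tfb1m lost its call and Metap1d gained one. In that fit 2932 genes were called in all, beside 2970 in the fit reported. The total of all genes called was 1846 in replicates 3 and 4 alone and 1744 at an adjusted p under 0.01. The median log2 fold change stayed above 0 in all 18 fits and was 0.034 for the large and 0.0046 for the small subunit in replicates 3 and 4 alone. The ratio of large to small subunit sums was 2.07 in Wfs1KO and 2.08 in WT with structural subunit assignment, and 1.70 ± 0.0234 in Wfs1KO and 1.75 ± 0.0431 in WT as CPM per kb. Left out of a 1 CPM filter were Mrpl23 and Mrps36. Of the single-gene fits, 595 kept their side of the threshold, 37 lost it and 13 gained it, and none was reversed. The cause was not tested. The median SE of a member's log2 fold change was 0.08, which limits what could be detected.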
